A study of Mus musculus with 9 samples.

Results

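The genes described here are 38 ribosome biogenesis factors, measured in NIH-3T3 cells after a microRNA was raised or blocked. They were taken from a list of nucleolar, rRNA processing and RNA polymerase I genes, with the probe set of highest mean over the 9 arrays standing for each gene. All 38 were on the array, among 19938 named genes, and all 38 lay above the level filter that left 11963 genes for testing. NIH-3T3 is an established line of mouse embryonic fibroblasts, and every culture received 25 nM of RNA complexed to the lipid reagent DharmaFECT 1 for 48 h. The 3 groups of 3 arrays received a commercial mimic of miR-378-3p, a commercial inhibitor of miR-378-3p, or a RISC-free siRNA, which is the control of both. A mimic is a double-stranded RNA that supplies the mature microRNA, an inhibitor is an antisense molecule that binds it, and a RISC-free siRNA is modified so that the silencing complex does not take it up. No inhibitor control of another sequence and no untransfected culture were analysed here, and the labels do not say whether the triplicates were separate cultures. The p-values therefore speak of the spread among these arrays, part of which may be technical.

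Ribosomes are built in the nucleolus. RNA polymerase I transcribes a long precursor RNA, small nucleolar ribonucleoproteins (snoRNPs) guide its chemical modification, and a large set of processing and assembly factors cuts it and folds it into the small and large subunits. Many genes of these factors are known targets of the transcription factor Myc, which with its partner Max binds the E-box CACGTG, and their RNA levels are known to follow growth and proliferation in cultured fibroblasts.

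The values are log2 RMA signals (robust multi-array average), so a difference of 1 is a 2-fold change within a probe set, and levels are not compared between genes. A gene was called when its limma p-value, adjusted by Benjamini-Hochberg over the 11963 genes, was below 0.05. The median log2 signal of the arrays lay between 3.94 and 4.03. The 75th percentile differed more, at 5.64 to 5.65 in the controls, 5.55 to 5.66 with the mimic and 5.67 to 5.76 with the inhibitor. The third mimic array and the first inhibitor array stood apart, at opposite ends of the first principal component (60.5% of the variance), and the main member counts are also given without them. The 11 fibroblast markers on the array all lay above the filter. Ptprc, Adgre1, Epcam, Cdh1, Cdh5 and Kdr, which mark leukocytes, macrophages, epithelium and endothelium, lay below it, as did Lyz2, Krt5 and Tek. Other markers of these cell types lay above it, namely Cd68 and Csf1r (macrophages), Krt8 and Krt18 (epithelium) and Pecam1 (endothelium). Of the muscle markers, Myod1 and Acta1 lay above the filter and Myog, Des and Myh3 below it. Against the control, none of the tested markers of macrophages (2), epithelium (2), endothelium (1) and muscle (2) was called, and of the fibroblast markers Thy1 was higher with the mimic (0.38) and Col3a1 lower with the inhibitor (-0.22). In bulk RNA, fewer cells with a transcript and less of it per cell cannot be told apart.

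With the miR-378-3p inhibitor, 30 of the 38 factors rose, none fell, and 8 did not pass the test. The share of all tested genes called higher was 11.1%, and 3.76% were called lower (14.9% in either direction). At an unadjusted p below 0.05 in the limma fit, 35 members were higher and 0 lower, beside 20.3% and 8.57% of all genes. The median difference of the members was 0.40, beside 0.01 for all tested genes, and called members differed by 0.24 to 0.92. At least 1.5-fold was reached by 13 members, beside 1.46% of all genes that were called higher at that size. In 36 of 38 members every inhibitor array lay above every control array, as it did in 24.9% of all genes. The balance of the background depended on scaling: 1330 genes were called higher and 450 lower on the deposited values, and 1269 higher and 1022 lower after quantile normalization, where 30 members were called. The fitted member median was 0.32 in that setting.

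**Figure D1:**
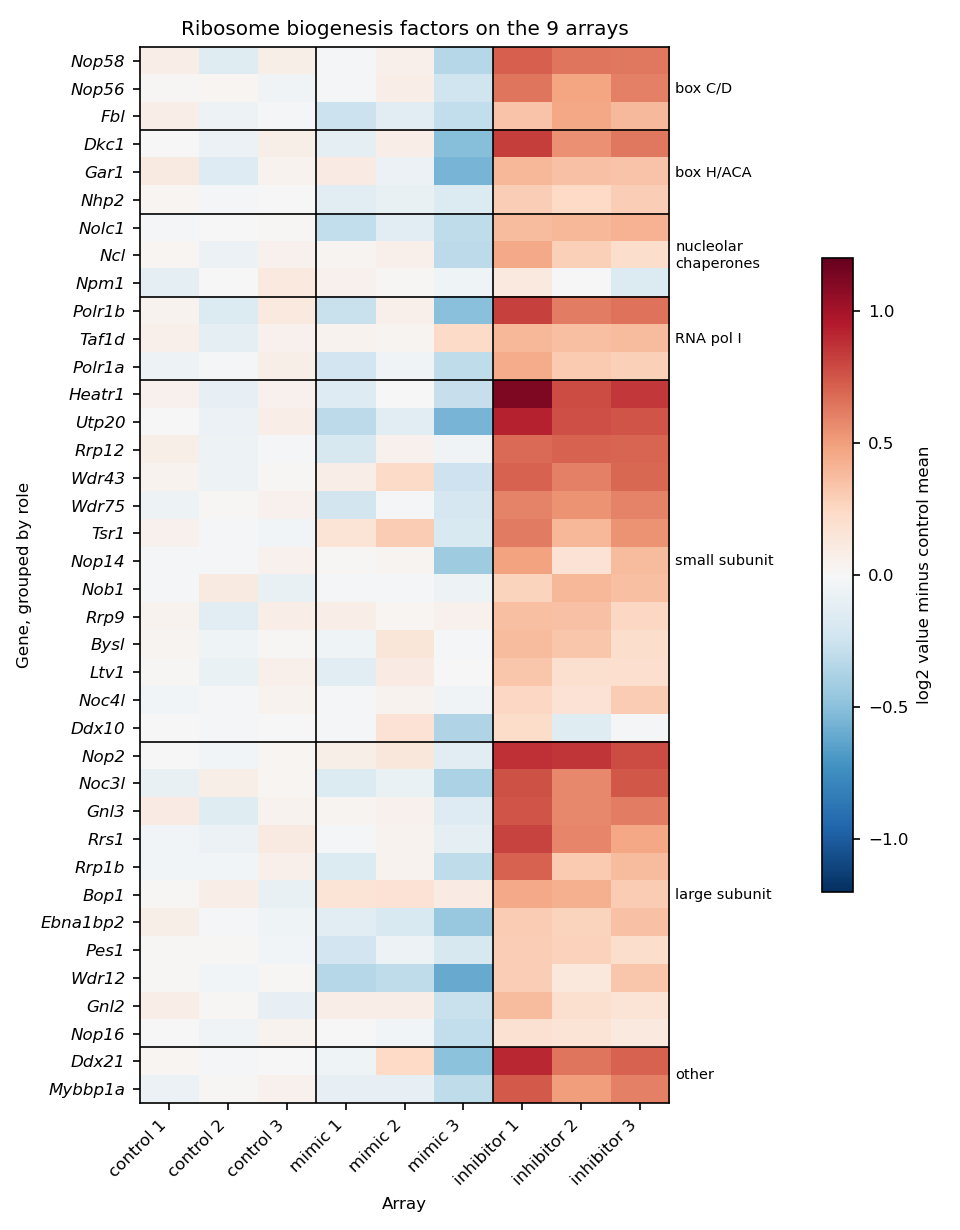
Difference of each of the 38 factors on each array from the mean of the 3 control arrays, in log2 units (colour), with genes in rows by role and the 9 arrays in columns. The inhibitor columns are positive for 38, 36 and 36 members, beside 6580, 6502 and 6682 of all 11963 tested genes. In mimic arrays 1 to 3 the values of 26, 14 and 35 members lie below the control mean, beside 5959, 5133 and 7459 of all genes.

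Of the members that rose, 7 hold the E-box in the RefSeq window around their start site, which runs from 250 bases before the start to 50 after it (assembly GRCm38.p6). The sites are shown as a description of these windows. The motif was not used to choose the genes, but it is no independent feature of this list. Many such genes are known Myc targets, and the members were chosen with earlier results of these data known. Each is printed 5′ to 3′ on the gene's strand with up to 12 bases on either side inside the window, and the capitals mark CACGTG, which reads the same on both strands.
Nop2: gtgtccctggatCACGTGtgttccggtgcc
Utp20: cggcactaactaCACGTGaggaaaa
Wdr43: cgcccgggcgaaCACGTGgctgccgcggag
Mybbp1a: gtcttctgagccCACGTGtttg
Tsr1: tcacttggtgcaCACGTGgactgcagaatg
Pes1: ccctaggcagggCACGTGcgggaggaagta
Ltv1: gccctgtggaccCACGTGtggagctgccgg

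The Nop2 stretch lies at chr6:125131811-125131840 on the plus strand, and its E-box begins at base -60, upstream of the start. The other stretches have the E-box just downstream of the start, beginning at base 3 for Pes1 (chr11:3963965-3963994, plus strand), 18 for Wdr43 (chr17:71616220-71616249, plus) and 25 for Tsr1 (chr11:74898092-74898121, plus), where the start is base 1. It begins at base 29 for Ltv1 (chr10:13193092-13193121, minus), 38 for Utp20 (chr10:88826765-88826789, minus) and 41 for Mybbp1a (chr11:72441355-72441376, plus). For Nop2, whose difference had the lowest adjusted p of the members with the inhibitor, the 250 bases upstream of the start (chr6:125131633-125131882, plus strand) show the site in its context.
Nop2 upstream: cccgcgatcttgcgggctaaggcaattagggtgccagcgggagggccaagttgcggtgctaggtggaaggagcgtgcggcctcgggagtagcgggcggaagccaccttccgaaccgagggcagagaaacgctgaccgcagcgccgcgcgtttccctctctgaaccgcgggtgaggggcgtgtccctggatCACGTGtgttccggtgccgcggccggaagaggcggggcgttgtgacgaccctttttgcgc

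Of the 38 members, 32 had a RefSeq window, and 7 of these (21.9%, exact 95% interval 9.28 to 40%, which covers counting only) held CACGTG. The share was 11.7% of the 9560 tested genes with a window and 8.09% of all 27025 genes with a window of this length. All 7 rose with the inhibitor, with a median difference of 0.61. Of the 25 whose windows lack these letters, 19 rose, with a median of 0.36, and 4 of the 6 without a window rose (Fbl, Rrp12, Bop1 and Rrs1, but not Npm1 or Gnl2). The difference between members with and without the site was not tested, and a match of 6 letters is a description of the window, not evidence of binding.

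The transcript of Myc itself rose with the inhibitor. Myc read 6.68, 6.78 and 6.60 in the controls, 7.03, 6.96 and 6.69 with the mimic and 7.90, 7.78 and 7.87 with the inhibitor. The inhibitor arrays lay above all others, by 1.16 ± 0.09 (SE) over the control (limma adjusted p = 4.81e-05), and the mimic difference of 0.20 was not called (limma adjusted p = 0.283). Of the 11 tested genes of the Myc, Max and Mxd list, Mxd4, a partner of Max that represses E-box genes, was the other one called with the inhibitor, at -0.39 (limma adjusted p = 0.00574). Mxd4 was higher by 0.35 with the mimic (limma adjusted p = 0.0275), a call that was lost without any of the control arrays, the first mimic array or the third inhibitor array.

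The core proteins of both snoRNP classes are the enzymes and scaffolds that modify the precursor RNA. The box C/D proteins Nop56, Nop58 and fibrillarin (Fbl, the methyltransferase) all rose with the inhibitor. Nop58 read 8.09, 7.86 and 8.08 in the controls, 8.0, 8.07 and 7.67 with the mimic and 8.73, 8.65 and 8.65 with the inhibitor. The inhibitor values were above all others, 0.67 ± 0.10 (SE) over the control (limma adjusted p = 0.00193), while the mimic and control arrays overlapped. Nop56 rose by 0.57 (limma adjusted p = 0.00135). Fbl read 7.14, 7.0 and 7.04 in the controls, 6.80, 6.93 and 6.77 with the mimic and 7.40, 7.53 and 7.45 with the inhibitor, so that the 3 groups did not overlap. Its inhibitor difference was 0.40 ± 0.06 (SE, limma adjusted p = 0.00238) and its mimic difference -0.23 (limma adjusted p = 0.0802). A second Fbl probe set with a RefSeq transcript gave 0.21 with the inhibitor (limma adjusted p = 0.157) and -0.04 with the mimic, so the Fbl call depends on the probe set.

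Among the box H/ACA proteins, the pseudouridine synthase Dkc1 and its partner Nhp2 rose. Gar1, another core protein, had a difference of 0.36 that did not pass (limma adjusted p = 0.111). Gar1 was called in 1 of the 9 fits that leave out 1 array, that without the third mimic array. Dkc1 read 7.22, 7.16 and 7.30 in the controls, 7.12, 7.30 and 6.72 with the mimic and 8.06, 7.77 and 7.86 with the inhibitor. Every inhibitor array exceeded every other array (0.67 ± 0.13 SE over the control, limma adjusted p = 0.00668), and mimic array 3 stood well below its group. Nhp2 rose by 0.27 (limma adjusted p = 0.00342).

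The nucleolar chaperones did not move together. Nolc1, a scaffold that binds snoRNPs, read 6.29, 6.31 and 6.32 in the controls, 6.02, 6.18 and 6.0 with the mimic and 6.69, 6.70 and 6.73 with the inhibitor. The 3 groups of Nolc1 were separate, with the mimic lowest and the inhibitor highest, and it was the only member called in opposite directions against the control: 0.40 ± 0.05 (SE) with the inhibitor (limma adjusted p = 0.00124) and -0.24 with the mimic (limma adjusted p = 0.0392). The mimic call of Nolc1 was kept in only 2 of the 9 fits that leave out 1 array. Nucleolin (Ncl), which binds the precursor RNA, differed by 0.32 with the inhibitor and narrowly missed the threshold (limma adjusted p = 0.0561). Nucleophosmin (Npm1), an abundant nucleolar chaperone, read 9.03, 9.15 and 9.27 in the controls, 9.20, 9.16 and 9.10 with the mimic and 9.27, 9.15 and 8.98 with the inhibitor. Its groups overlapped throughout, with an inhibitor difference of -0.02 ± 0.08 (SE, limma adjusted p = 0.924), the only member with a difference below 0. The 3 further Npm1 probe sets are shared with another gene and were not used. Their means were 10.14, 10.62 and 10.30 in the controls and 10.19, 10.64 and 10.34 with the inhibitor, differences that were not tested. The sign below 0 is therefore that of the probe set used.

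All 3 RNA polymerase I genes rose. Polr1b, the second-largest subunit of the enzyme, read 6.13, 5.93 and 6.21 in the controls, 5.83, 6.16 and 5.59 with the mimic and 6.91, 6.71 and 6.75 with the inhibitor. The inhibitor arrays were the highest (0.70 ± 0.13 SE over the control, limma adjusted p = 0.00537), and the mimic arrays were spread widely around and below the controls. Polr1a, the largest subunit, rose by 0.35 (limma adjusted p = 0.0116), a call lost without the first control array (limma adjusted p = 0.0549). Taf1d, a subunit of the factor that recruits the polymerase to the rRNA gene promoter, rose by 0.38 (limma adjusted p = 0.00521). The Taf1d probe set of highest mean has no RefSeq transcript in the annotation, and the one that has gave 0.51 (limma adjusted p = 0.0096).

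The small subunit factors form the largest role group, and 11 of its 13 members rose, with a median difference of 0.35. The largest differences were those of large scaffold proteins of the early processing complex. Heatr1 read 6.03, 5.88 and 6.03 in the controls, 5.83, 5.98 and 5.70 with the mimic and 7.10, 6.76 and 6.82 with the inhibitor. It had the largest inhibitor difference of all 38 members, 0.92 ± 0.10 (SE, 1.89-fold, limma adjusted p = 0.000321), with the first inhibitor array highest and the mimic and control arrays overlapping. Utp20 read 5.78, 5.71 and 5.86 in the controls, 5.47, 5.65 and 5.22 with the mimic and 6.71, 6.56 and 6.54 with the inhibitor. Its 3 groups did not overlap: the inhibitor was 0.82 ± 0.10 (SE) above the control (limma adjusted p = 0.000618), and the mimic difference of -0.34 was not called (limma adjusted p = 0.0983).

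Other members of the group followed with smaller differences. Rrp12, a factor of nuclear export of the subunit, rose by 0.69 (limma adjusted p = 0.000186), and Wdr43 and Wdr75, which act with Heatr1 on the nascent precursor, rose by 0.67 and 0.58. Tsr1, a late assembly factor, rose by 0.52. Nob1, the nuclease of the last cut of the small subunit RNA, rose by 0.34, and Rrp9, a protein of the U3 snoRNP, by 0.32. The late factors Bysl and Ltv1 and the Nop14 partner Noc4l rose by 0.31, 0.24 and 0.24. Bysl was not called without the second control array, Noc4l without the first control or the third inhibitor array, and Ltv1 without any 1 of the 6 arrays of the comparison.

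Nop14 and Ddx10 did not pass in this group. Nop14 differed by 0.35 (limma adjusted p = 0.0731), with no overlap between inhibitor and control. The helicase Ddx10 read 7.24, 7.22 and 7.24 in the controls, 7.22, 7.41 and 6.87 with the mimic and 7.46, 7.09 and 7.22 with the inhibitor. The first inhibitor array was the single Ddx10 value above the controls in its group, and the difference of 0.02 ± 0.13 (SE, limma adjusted p = 0.938) became -0.08 without it.

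Of the 11 large subunit factors, 8 rose, with a median of 0.39. Nop2, which methylates the large subunit RNA and holds an E-box upstream of its start, read 6.57, 6.54 and 6.59 in the controls, 6.64, 6.70 and 6.43 with the mimic and 7.44, 7.42 and 7.35 with the inhibitor. Its inhibitor arrays were tightly grouped 0.84 ± 0.07 (SE) above the control (1.79-fold, limma adjusted p = 7.95e-05), and the mimic arrays lay on both sides of the controls. Noc3l, an early assembly factor, read 5.92, 6.09 and 6.04 in the controls, 5.85, 5.94 and 5.64 with the mimic and 6.78, 6.59 and 6.76 with the inhibitor. The inhibitor values were highest again, by 0.70 ± 0.08 (SE, limma adjusted p = 0.00067), with 1 mimic array inside the control range.

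Gnl3 (nucleostemin, a GTPase of proliferating cells) rose by 0.65, Rrs1, which brings in a small ribonucleoprotein of the large subunit, by 0.62, and Rrp1b by 0.47. Ebna1bp2 rose by 0.31. Rrp1b was not called without the first or the second control array, and Ebna1bp2 without control 2 or 3 or inhibitor 1 or 3. The GTPase Gnl2 (0.25, limma adjusted p = 0.121) and Nop16 (0.15, limma adjusted p = 0.197) did not pass, although their inhibitor arrays lay above the controls.

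Pes1, Bop1 and Wdr12 form a complex that processes the large subunit RNA. With the inhibitor, Bop1 rose by 0.39 (limma adjusted p = 0.00226) and Pes1 by 0.26 (limma adjusted p = 0.0116, and 0.0535 without the third control array). Wdr12 read 7.20, 7.16 and 7.20 in the controls, 6.85, 6.88 and 6.59 with the mimic and 7.48, 7.31 and 7.52 with the inhibitor. Its 3 groups did not overlap, but the inhibitor difference of 0.25 was not called (limma adjusted p = 0.0665) whereas the mimic difference of -0.42 ± 0.08 (SE) was (limma adjusted p = 0.0222). With the mimic, Bop1 stood at 0.15 and Pes1 at -0.16, neither called. A second Wdr12 probe set gave -0.57 with the mimic (limma adjusted p = 0.0492) and 0.44 with the inhibitor (limma adjusted p = 0.054).

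The remaining nucleolar factors, Ddx21 and Mybbp1a, both rose. Ddx21, a helicase of rRNA transcription and processing, read 7.46, 7.41 and 7.43 in the controls, 7.38, 7.68 and 6.94 with the mimic and 8.34, 8.07 and 8.14 with the inhibitor. The inhibitor arrays were highest (0.75 ± 0.15 SE, 1.68-fold, limma adjusted p = 0.00757), and the mimic arrays were the most scattered of the groups. Mybbp1a, a nucleolar protein that binds transcription factors, read 7.94, 8.04 and 8.07 in the controls, 7.92, 7.92 and 7.71 with the mimic and 8.75, 8.52 and 8.62 with the inhibitor. The groups were separate, with an inhibitor difference of 0.61 ± 0.08 (SE, limma adjusted p = 0.000768) and a mimic difference of -0.17 (limma adjusted p = 0.319).

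**Figure D2:**
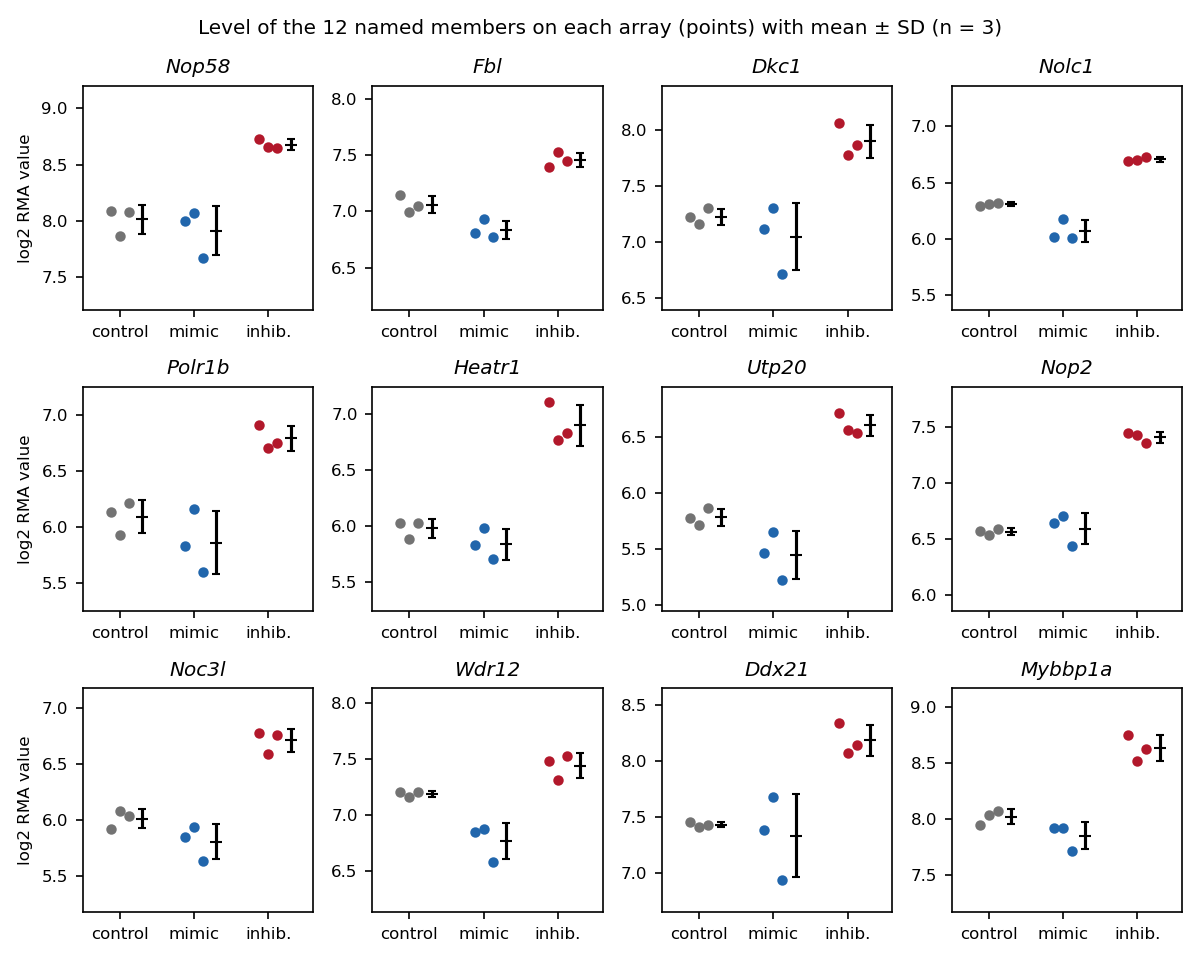
Log2 RMA signal on each array (points) for the 12 members named by rule, with 1 panel per gene and the mean ± SD of each group of 3 beside its points. Every panel spans the same range of log2 units around its own level, and the inhibitor points lie above the control points in all 12. The 12 were chosen for large differences, so this separation is no separate result, and Npm1 and Ddx10 are not among them.

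The first inhibitor array was the highest of its group for 31 of the 38 members. Per array, the median member stood 0.45, 0.40 and 0.38 above the control mean in inhibitor arrays 1 to 3, beside 0.02, 0.01 and 0.02 for the median of all tested genes. Without that array and the third mimic array together, 34 members were called higher, and the share of all genes called higher was 13.9%. Of the 30 calls, 29 were among these 34, and Ltv1 was the one lost. Leaving out 1 array at a time, between 26 and 36 members were called. In all 9 fits, 23 of the 30 calls were kept. Without the first control, 26 members and 6.2% of all genes were called higher. Without the third mimic array these were 36 and 17.3%, and Gar1, Ncl, Nop14, Wdr12, Gnl2 and Nop16 were then called. That array enters this comparison only through the shared estimate of spread. Npm1 and Ddx10 were called in none of the 9 fits. With only the 6 inhibitor and control arrays fitted, 36 members were called higher, beside 1918 of all tested genes higher and 651 lower.

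With the miR-378-3p mimic, 2 of the 38 factors fell, Wdr12 and Nolc1, none rose and 36 did not pass. Of all tested genes, 2.45% were called lower and 1.1% higher (3.55% in either direction). At an unadjusted p below 0.05 in the limma fit, 10 members were lower and 1 was higher, beside 10% and 5.86% of all genes, and 30 of 38 differences were below 0, beside 52.8% of all genes. The median difference of the members was -0.10, beside -0.01 for all tested genes. Without the third mimic array, the member median was -0.0025, 19 of 38 differences were below 0 (45.3% of all genes), and 7 members were lower and 3 higher at an unadjusted p below 0.05 (7.65% and 9.72% of all genes). Without the second mimic array, the member median was -0.16 and 35 of 38 differences were below 0, beside -0.02 and 57.7% for all genes. In that fit 14 members were lower and 0 higher at an unadjusted p below 0.05 (14.5% and 5.51% of all genes). In 8 members the mimic arrays all lay below the controls (12.7% of all genes did so), namely Fbl, Nhp2, Nolc1, Utp20, Pes1, Wdr12, Ebna1bp2 and Mybbp1a, and in Bop1 they all lay above (8.67% of all genes). The background again shifted with scaling, from 132 genes higher and 293 lower to 335 and 439 after quantile normalization, where 4 members were called.

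The third mimic array was the lowest of its group for 31 of the 38 members and the second mimic array the highest for 31. The median member stood at -0.04, 0.04 and -0.27 relative to the control mean in mimic arrays 1 to 3, beside -0.05 for the median of all genes in the third. Wdr12 was called in 5 of the 9 fits that leave out 1 array and Nolc1 in 2 of 9. Both calls were lost without any 1 of the control arrays or the first mimic array and after median centring, and Nolc1 was lost without the third mimic array.

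**Figure D3:**
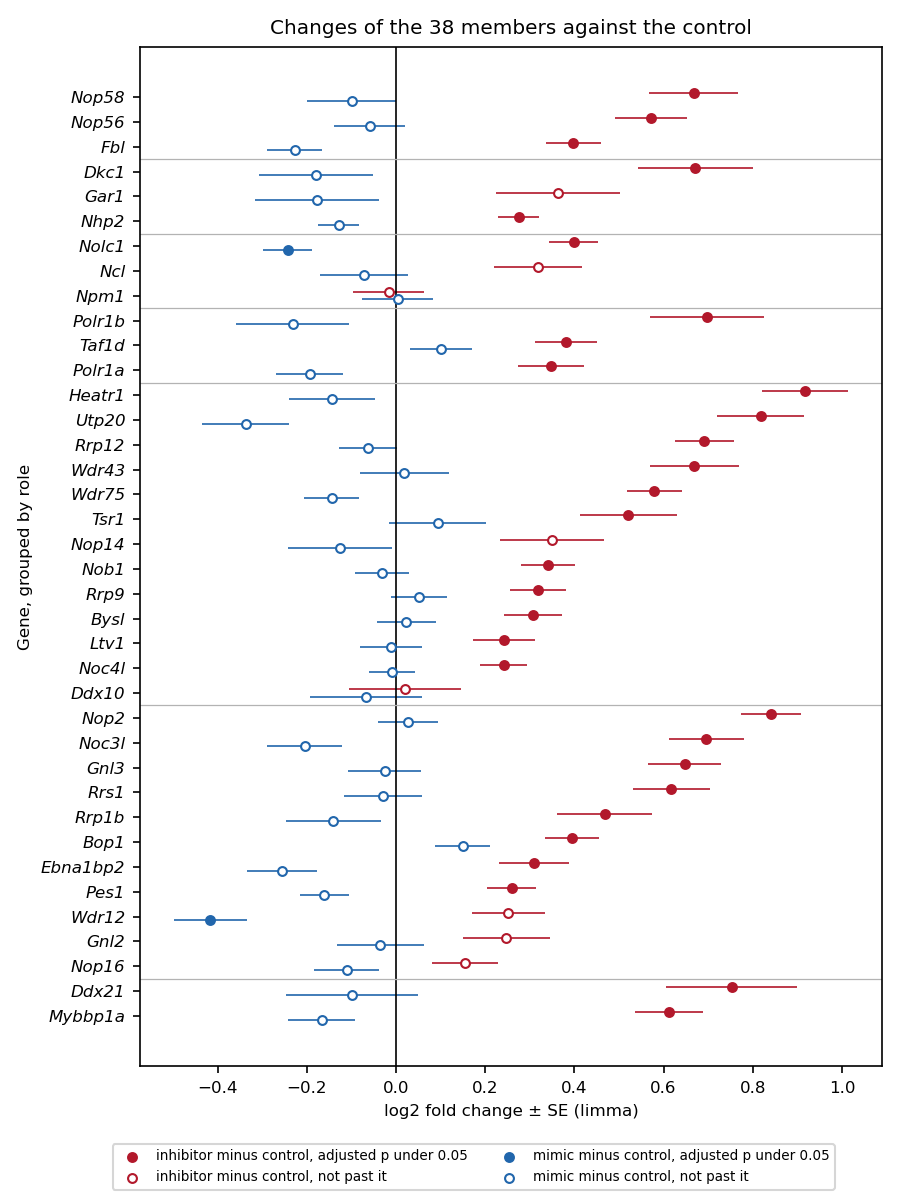
Log2 difference from the control, with its limma standard error, for each of the 38 members with the mimic and with the inhibitor; both comparisons use the same 3 control arrays, and filled symbols mark members past the threshold. Inhibitor differences run from -0.02 for Npm1 to 0.92 for Heatr1, and mimic differences from -0.42 for Wdr12 to 0.15 for Bop1.

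Set directly against each other, mimic and inhibitor differed in 35 of the 38 members, all lower with the mimic. The control arrays enter this comparison through the shared estimate of spread. When the 6 mimic and inhibitor arrays were fitted alone, 33 members were called, beside 1747 of all tested genes lower with the mimic and 564 higher. In the main fit, 19.9% of all tested genes were called lower with the mimic and 6.91% higher (26.8% in either direction). The median member difference was -0.59, beside -0.02 for all tested genes. Utp20 differed most, by -1.15 ± 0.10 (SE, limma adjusted p = 4.91e-05), followed by Heatr1 at -1.06, Polr1b at -0.93 and Noc3l at -0.90. Npm1, Ddx10 and Gnl2 (-0.28, limma adjusted p = 0.0544) did not pass. Quantile normalization moved the background from 827 higher and 2377 lower to 1670 and 2028.

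The rest of the pathway was read from lists of genes that are not members, beside the 11.1% of all genes called higher and the 3.76% called lower with the inhibitor. With the inhibitor, 7 of 15 other RNA polymerase I and rDNA transcription genes rose and none fell, with a median of 0.19. Rrn3, the initiation factor of the polymerase, rose by 0.50 (limma adjusted p = 0.00658) and Tcof1 (treacle) by 0.41 (limma adjusted p = 0.00136). Of 42 other small subunit factors 20 rose and none fell (median 0.23), with Esf1 at 0.66 and Wdr3 at 0.63. Of 47 other large subunit factors 23 rose and none fell (median 0.27), with Mdn1, a giant ATPase that remodels the precursor subunit, at 0.81 (limma adjusted p = 0.000564) and Ftsj3 at 0.57. At an unadjusted p below 0.05, 2, 0 and 0 genes of these lists were lower.

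The snoRNP assembly and exosome lists had fewer calls. Of 11 other snoRNP and assembly genes 2 rose, Nufip1 by 0.36 and Ruvbl2 by 0.34, and of 16 exosome and rRNA trimming genes 4 rose, with Dis3 at 0.48 and Exosc2 at 0.42. Of 19 RNA polymerase III genes 3 rose and 1 fell, with a median of 0.05. The shares of the snoRNP assembly and RNA polymerase III lists called higher lie near that of all genes. At an unadjusted p below 0.05 in the limma fit, 6 of the 11 snoRNP assembly genes were higher and 0 lower, with a median difference of 0.15. Of the 19 RNA polymerase III genes, 6 were higher and 2 lower, beside 20.3% and 8.57% of all genes. The rises of Esf1, Ftsj3, Ruvbl2 and Exosc2 were each lost in 2 to 5 of the 9 fits that leave out 1 array.

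Genes of the ribosome's own proteins did not share this direction. Of 78 cytosolic ribosomal protein genes listed, 54 had a probe set annotated to 1 gene and were tested. Of these 54, 1 rose (Rpl12, 0.43) and 17 fell with the inhibitor, with a median of -0.13. The largest fall was that of Rps21 (-0.50, limma adjusted p = 0.0282), which was lost without control 1 or 3 or any inhibitor array. The number of falls called varied with the arrays fitted: 3, 8 and 1 were called without control 1, 2 or 3, and 6 and 1 without inhibitor 1 or 3. In the same fits the lower calls among all genes went from 450 to 232, 265, 236, 348 and 234. On inhibitor arrays 1 to 3, 50, 47 and 50 of the 54 genes lay below the control mean, which these counts share. Of all 11963 tested genes, 5378, 5446 and 5269 did so. At an unadjusted p below 0.05 in the limma fit, 27 were lower and 1 was higher, beside 8.57% and 20.3% of all genes. Transcripts of this family have many near-identical pseudogene copies, so their probe sets are uncertain. Of 75 mitochondrial ribosomal protein genes 2 rose and 6 fell, with a median of -0.02.

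**Figure D4:**
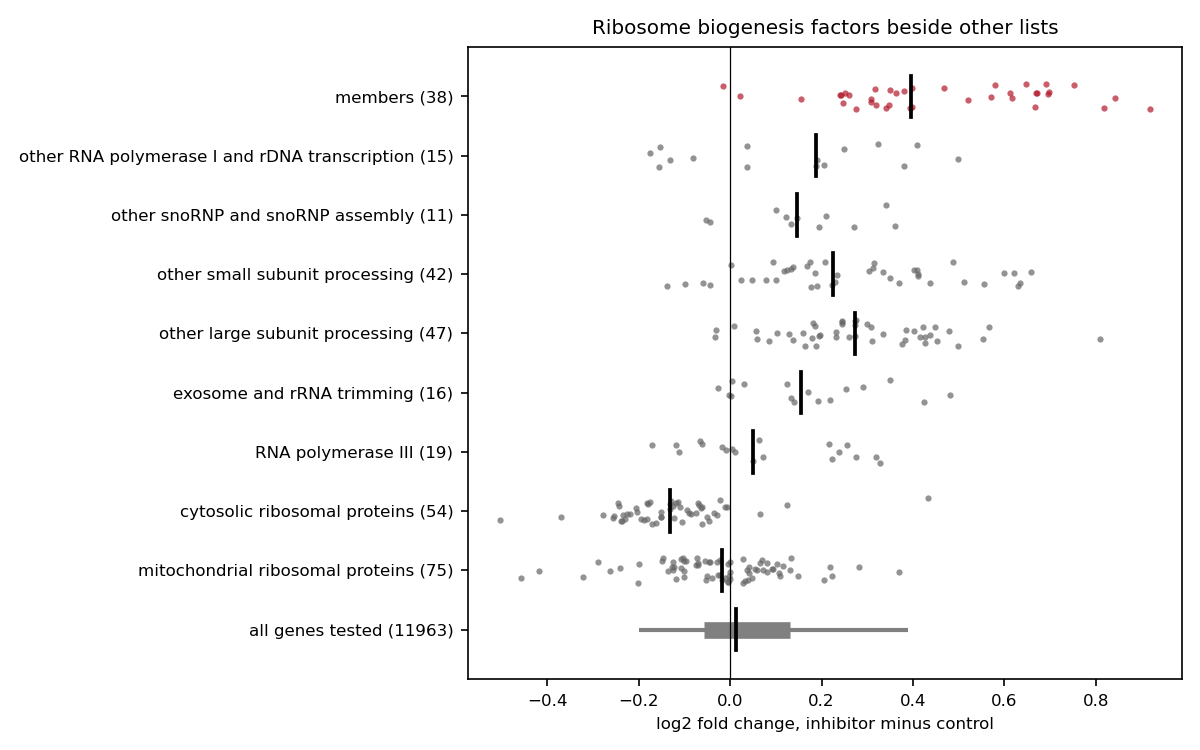
Log2 difference of inhibitor and control for each tested gene (points, spread vertically for legibility) of the 38 members and 8 pathway lists, with a black bar at each median and, for all 11963 tested genes, a thick line over the middle 50% and a thin line from the 5th to the 95th percentile. The member median of 0.40 lies to the right of the medians of the other lists, and that of the 54 cytosolic ribosomal protein genes lies below 0, at -0.13. The members and lists were chosen with earlier results of these data known, and the order of their medians was not tested.

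With the mimic, 3 of 75 mitochondrial ribosomal protein genes fell and none rose in the limma fit (14 lower and 0 higher at an unadjusted p below 0.05), beside the 2.45% and 1.1% of all genes called lower and higher. Mrps33 fell by 0.40 (limma adjusted p = 0.0124, lost without control 2 or 3) and Mrpl30 by 0.28 (limma adjusted p = 0.04995, lost in 8 of the 9 fits that leave out 1 array). Of 47 other large subunit factors Gnl3l fell by 0.58 (limma adjusted p = 0.0324) and the helicase Ddx51 rose by 0.33 (limma adjusted p = 0.00668). Gtf3a, the factor that recognises the gene of the smallest rRNA, fell by 0.34, and Rpl29 fell by 0.30. The falls of Gnl3l, Gtf3a and Rpl29 were lost in 5, 3 and 7 of the 9 fits that leave out 1 array. No gene of the other RNA polymerase I, snoRNP, small subunit or exosome lists was called by limma. At an unadjusted p below 0.05, 2 of 15, 5 of 11, 6 of 42 and 4 of 16 of their genes were lower, beside 10% of all genes.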

How the data were processed

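The labels describe total RNA, extracted with the miRNeasy kit and biotinylated by a whole-transcript protocol. The deposited table holds log2 values of 28853 probe sets on each array. Partek 6.5 and RMA are named in the submitters' processing notes, and a genome build was not given in the sources used here. Genes were named from probe sets annotated to 1 gene (21789 of them). Genes whose mean over the arrays was under the 40th percentile (3.86) were left out. limma 3.58.1 (R 4.3.3) was run on all 9 arrays with 1 term for each group (lmFit and eBayes, leaving 6 residual degrees of freedom), and p-values were adjusted over 11963 genes with a threshold of 0.05. Standard errors are the moderated ones. The number of arrays limits the precision. The code was tested on simulated data.

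Values on each array were given for members by a rule: the 4 largest called differences in each comparison, the largest of each role in either comparison with the control, and members called in opposite directions. Myc, Npm1 and Ddx10 were added. Of each pathway list, at most 2 called genes per comparison were named. The members and lists were chosen with earlier results of these data known. Alternatives were no filter, quantile normalization, median centring, 6 arrays, the replicate number as a block, an intensity trend, the mean of all probe sets and leaving out arrays. Other probe sets of Fbl, Taf1d and Wdr12, and the alternatives for pathway genes, were chosen after seeing the data. Promoter windows came from a RefSeq table (GRCm38.p6).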

Additional observations from a re-analysis of the deposited data

How the results depend on the processing

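Both comparisons with the control share its 3 arrays, and the number of arrays limits the smallest difference that could be called. With the inhibitor, 27 of the 30 member calls were kept under all 9 settings other than leaving out 1 array. The member median of 0.40 became 0.32 after quantile normalization, and the genes called (1780) ranged from 974 to 2790 when 1 array was left out, with 974, 1051 and 990 without control 1, 2 or 3, 1096 and 1040 without inhibitor 1 or 3, and 2790 without mimic 3. With the mimic, the 2 member calls became 4 after quantile normalization, 0 after median centring, and 1 each with the replicate block, an intensity trend or only 6 arrays. They ranged from 0 to 4 when 1 array was left out. The genes called with the mimic (425) became 774 after quantile normalization, 231 after median centring, 911 without mimic 3 and inhibitor 1 together and 248 with 6 arrays, and ranged from 133 to 582 when 1 array was left out. In the direct comparison, 28 (without inhibitor 1) to 36 (without mimic 2) members were called when 1 array was left out. Among all tested genes, 2310 and 3669 were called in these 2 fits, beside 3204 in the main fit. The cause of these shifts was not tested.

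Values near 0 changed sign. Against the control, Ddx10 with the inhibitor became -0.066 after quantile normalization and -0.081 without mimic 3 and inhibitor 1, and ranged from -0.081 to 0.11 when 1 array was left out. Npm1 became 0.0052 after median centring and ranged from -0.084 to 0.058. In the direct comparison Ddx10 became 0.035 after quantile normalization and 0.16 without both arrays (from -0.21 to 0.059 with 1 array left out), and Npm1 -0.0096 after median centring (from -0.054 to 0.088). The motif CACGTG or CACGCG was found for 14 of the 32 members with a window (43.8%), beside 28.9% of tested genes.

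Replicate numbers were not taken as a pairing in the main fit. Same-numbered arrays correlated from -0.59 to 0.22 in their deviations from the group means, and arrays of different number from -0.58 to 0.63. With 3 arrays in each group, these values cannot decide whether the numbers mark a pairing. With the replicate block, 289, 1575 and 3028 genes were called with the mimic, with the inhibitor and between them, with 1, 30 and 36 members.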
